A study of Mus musculus with 6 samples.

Results

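Kruppel-like factors are zinc finger proteins that bind CACCC and GC-rich boxes in promoters, and 10 of their genes other than Klf1 are described here across 2 fractions of cells labelled as hematopoietic stem cells. The genes were taken by symbol from a list (Klf2, Klf3, Klf4, Klf6, Klf7, Klf9, Klf10, Klf11, Klf13 and Klf16) chosen with earlier results of these data known. All 10 were found, each once, among 30733 distinct symbols. RNA was measured by RNA sequencing of polyadenylated transcripts in bone marrow cells of wild-type (WT) mice aged 12 months, sorted by surface MHC class II into MHCII-hi and MHCII-lo fractions with 3 libraries each. Apart from the sort, all libraries share genotype, age and tissue. The sources used here do not say how many animals were used, whether libraries were pools, or which other markers set the stem cell gate, so p-values speak only of how far these libraries spread, which may be technical.

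All Kruppel-like factors share 3 zinc fingers at the carboxyl end and differ in the rest of the protein, which recruits other proteins. Klf2, Klf4, Klf6 and Klf7 belong to a branch that often activates transcription through acetyltransferases. Klf3 recruits the corepressor CtBP, and Klf9, Klf10, Klf11, Klf13 and Klf16 recruit the SIN3 corepressor. In blood, Klf2 keeps lymphocytes quiescent and controls their traffic, Klf4 takes part in monocyte differentiation, and Klf1, left out of the set, drives red cell genes. This grouping by partner was made with the values known and carries no test.

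The promoters of Klf2, Klf4 and Klf6 are shown because these 3 genes held most of the transcripts of the set and Klf2 and Klf4 went opposite ways. RefSeq windows (GRCm38.p6) before the start site were found for 8 of the 10 genes. Letters are 5′ to 3′ on the strand of the gene and stop before the first base that GENCODE gives to the gene. Klf2 is chr8:72318812-72319032 (plus strand), Klf4 is chr4:55532476-55532725 (minus strand) and Klf6 is chr13:5861239-5861481 (plus strand). Capitals mark matches, on either strand, to the GC box GGGCGG, the CCAAT box, the E-box CACGTG, the Kruppel-like factor core site CACCC, the TATA box with its letters TATAAA, or the MEF2 site, which is given by its name alone.
Klf2: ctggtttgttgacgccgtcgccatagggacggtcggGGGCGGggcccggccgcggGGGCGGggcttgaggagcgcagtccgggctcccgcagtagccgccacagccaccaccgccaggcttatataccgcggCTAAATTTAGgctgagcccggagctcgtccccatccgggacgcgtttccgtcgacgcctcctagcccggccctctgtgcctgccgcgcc
Klf4: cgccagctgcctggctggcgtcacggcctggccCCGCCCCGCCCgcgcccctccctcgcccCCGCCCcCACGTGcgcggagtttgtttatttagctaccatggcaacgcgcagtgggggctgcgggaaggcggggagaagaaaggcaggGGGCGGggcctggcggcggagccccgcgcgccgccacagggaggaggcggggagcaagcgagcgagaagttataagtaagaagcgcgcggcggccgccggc
Klf6: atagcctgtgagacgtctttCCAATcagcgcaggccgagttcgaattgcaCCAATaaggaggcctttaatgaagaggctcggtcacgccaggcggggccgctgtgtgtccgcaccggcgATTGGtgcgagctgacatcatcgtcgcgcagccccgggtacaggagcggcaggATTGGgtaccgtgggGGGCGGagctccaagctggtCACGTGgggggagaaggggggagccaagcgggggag
Counts were made in the 250 bases before the RefSeq start of each gene. The MEF2 site, CTAAATTTAG, begins 118 bases before the start of Klf2. Klf2 was the only one of the 8 genes with a MEF2 match, and 2.92% of 32851 windows of that length held one. In the Klf4 window there were 4 GC boxes, of which one pair overlaps by a base, and 1 E-box, while Klf2 had 2 GC boxes, 1 CACCC and no E-box. The last 29 bases before the RefSeq start of Klf2, where its CACCC lies, belong to the GENCODE gene and are not printed. Klf6 had 4 CCAAT boxes, 1 GC box and 1 E-box. At least 1 GC box stood in 7 of the 8 windows (32.7% of all windows), an E-box in 3 (6.02%), CCAAT in 4 (33.8%), CACCC in 5 (52% of all) and TATAAA in none (12.4%). The windows were rich in G and C, at 71.2% in Klf2, 74.0% in Klf4 and 64.8% in Klf6, against a median of 52.4% over all windows. A match is a description of letters, not of a bound site.

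Levels are in FPKM (fragments divided by transcript length and by the mapped fragments of a library), a unit inferred from the values. How deeply each library was sequenced is not known. The 12037 genes that averaged 1 FPKM or more were compared with limma on log2(FPKM + 1), which understates changes of low genes. A positive fold change means higher in MHCII-hi. Of the tested genes, 60.9% passed an adjusted p of 0.05, with 20.4% higher and 40.6% lower in MHCII-hi, and in 67.6% the values of the 2 groups did not overlap. Over all tested genes the median log2 fold change came to −0.12. It was −0.01 after median-ratio scaling, and the share of calls that were higher moved from 33.4% to 52.1% (28.2% of tested genes higher and 25.9% lower). The class II genes H2-Eb1, H2-Ab1, H2-Aa and Cd74, which check the sort, had higher levels in the MHCII-hi libraries, H2-Eb1 by a ratio of 2.51. Of 13 stem cell markers, 5 (Procr, Slamf1, Mecom, Fgd5 and Hoxb5) stayed under 1 FPKM in all 6 libraries. Of the 8 tested, 4 were higher and 2 lower in MHCII-hi. Kit was at 13.66 to 14.51 FPKM and Ly6a at 9.15 to 11.69 FPKM over the 6 libraries, and neither passed the test. Neutrophil markers made up 3.51 to 3.54% of summed FPKM in the MHCII-lo libraries and 16.5 to 16.6% in the MHCII-hi libraries. In such sorted bulk samples fewer cells of a type and less RNA per cell cannot be told apart.

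Each of the 10 Kruppel-like factors stood at 1 FPKM or more in every library, so none entered the test through 1 group alone. All 10 passed the limma test, against 60.9% of all tested genes, and in all 10 the groups did not overlap, against 67.6%. Klf2, Klf3, Klf6, Klf7 and Klf13 were higher in MHCII-hi (5 of 10, against 20.4% of tested genes), and Klf4, Klf9, Klf10, Klf11 and Klf16 were lower (5 of 10, against 40.6%). The change was at least 0.5 on the log2 scale, either way, in 8 of the 10, against 18.5% of tested genes. Klf6 and Klf13 were the other 2. As the 10 genes were chosen with earlier results of these data known, these shares describe them and are no test of the family. An exact permutation test on a single gene cannot go below p = 0.1 with 3 libraries against 3, and each of the 10 reached that value.

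**Figure D1:**
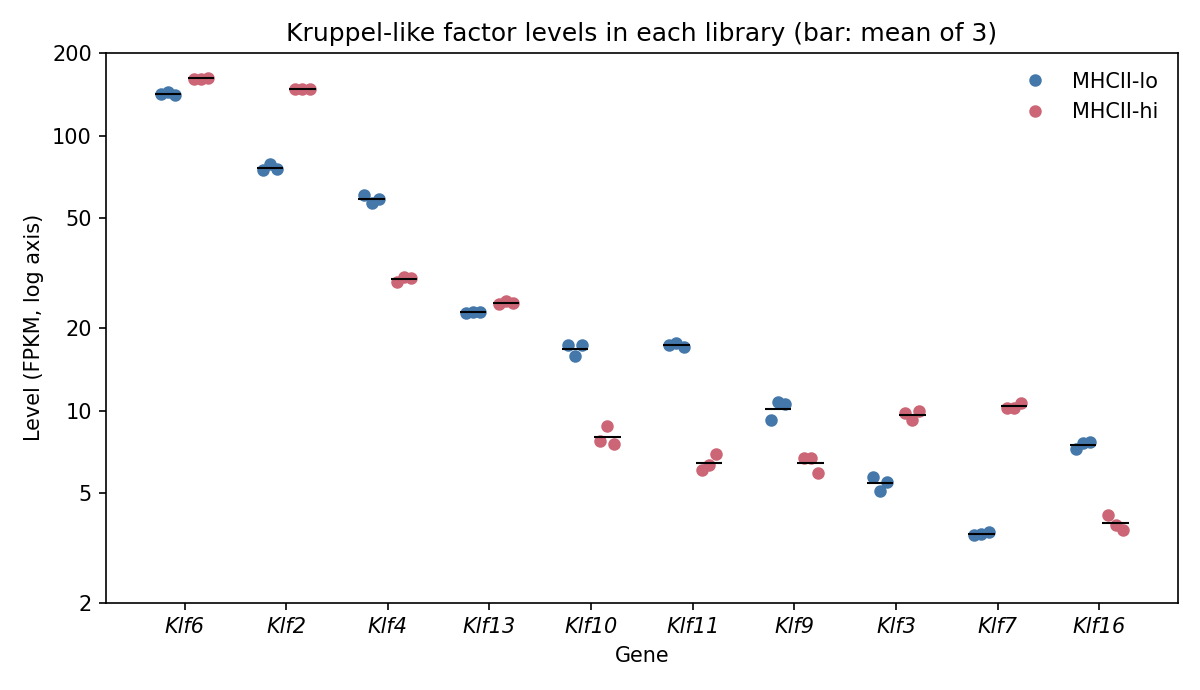
Level of each Kruppel-like factor (FPKM, log axis) in the 3 MHCII-lo libraries (blue) and the 3 MHCII-hi libraries (red), with a bar at the mean of each group, genes ordered by mean level. Klf6 and Klf2 stand highest in both fractions, and in no gene do the points of the 2 groups overlap.

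In the values as deposited, Klf2 was about as much higher in MHCII-hi as Klf4 was lower. Taken relative to the median of all tested genes, their log2 fold changes were 1.06 and −0.82. Klf2 lies on chromosome 8 (72319033 to 72321656, plus strand, GRCm38), and its protein activates the gene for the lymphocyte egress receptor S1pr1. MHCII-lo replicates 1 to 3 had Klf2 at 74.73, 78.98 and 75.55 FPKM, and MHCII-hi replicates 1 to 3 at 148.03, 147.43 and 147.80 FPKM. The 3 MHCII-hi libraries were nearly alike and all stood far above the MHCII-lo libraries. Klf2 rose by a ratio of 1.93 (log2 fold change 0.94, SE 0.0255, limma adjusted p 2.81e-07).

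Klf4 (chromosome 4, 55527143 to 55532466, minus strand) encodes a factor of monocyte differentiation that is also one of the factors used to reprogram cells to pluripotency. MHCII-lo replicates 1 to 3 held Klf4 at 61.00, 56.75 and 59.06 FPKM, and the MHCII-hi replicates at 29.47, 30.57 and 30.41 FPKM. Every MHCII-lo library was above every MHCII-hi library. Klf4 fell by a ratio of 1.95, MHCII-lo over MHCII-hi (log2 fold change −0.94, SE 0.0337, limma adjusted p 1.01e-06).

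The ratio of Klf2 to Klf4 within a library does not depend on how the library was scaled. This ratio was 1.23, 1.39 and 1.28 in MHCII-lo replicates 1 to 3 and 5.02, 4.82 and 4.86 in the MHCII-hi replicates. In MHCII-lo the genes were thus close to each other in level, and in MHCII-hi Klf2 stood well above Klf4 in all 3 libraries. On the log2(FPKM + 1) scale the Klf2 minus Klf4 difference averaged 0.37 ± 0.0922 (SD, n = 3) in MHCII-lo and 2.26 ± 0.0302 in MHCII-hi, a difference of 1.89 (exact permutation test, two-sided, p = 0.1, the smallest this design allows). The pair was singled out with these values known.

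Among the other members of the activating branch, Klf7 had the largest rise of the set and Klf6 a small one. Klf7 (chromosome 1, 64029447 to 64122282, minus strand) is best known for its role in neurons. Klf7 was at 3.52, 3.55 and 3.60 FPKM in MHCII-lo and at 10.18, 10.24 and 10.65 FPKM in MHCII-hi. The groups were well apart, and the libraries of a group were close together. Its ratio was 2.91 (log2 fold change 1.32, SE 0.0392, limma adjusted p 4.31e-07), and 2.73% of tested genes had a change at least as large in either direction. Gm13748, an antisense gene that overlaps Klf7, was at 0.21 to 0.41 FPKM in MHCII-lo and 0.97 to 1.72 FPKM in MHCII-hi. Whether the counting used strand is not stated, so reads of such overlapping pairs cannot be told apart. Klf6 (chromosome 13, 5861482 to 5870394, plus strand), an early response gene of injury and inflammation, was the most abundant of the 10 in both fractions. The Klf6 values of 141.41, 143.65 and 140.66 FPKM in MHCII-lo met 161.50, 161.42 and 161.95 FPKM in MHCII-hi. The libraries of a group were within a few FPKM, so that this small difference was larger than their spread (ratio 1.14, log2 fold change 0.19, SE 0.0176, limma adjusted p 0.00012).

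Klf3, the one member that recruits CtBP, was higher in MHCII-hi. This repressor (chromosome 5, 64803388 to 64832901, plus strand) competes with activating family members for the same sites and is known for its part in red cell and B cell development. Klf3 read 5.73, 5.11 and 5.50 FPKM in MHCII-lo and 9.82, 9.20 and 9.97 FPKM in MHCII-hi. Its groups did not overlap, and the ratio was 1.77 (log2 fold change 0.73, SE 0.0526, limma adjusted p 3.27e-05). The overlapping C230096K16Rik was at 0.73 to 1.14 FPKM in MHCII-lo and 1.21 to 1.62 FPKM in MHCII-hi, and Gm20033, on the other strand, at or under 0.26 FPKM.

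Of the 5 members that recruit SIN3, Klf9, Klf10, Klf11 and Klf16 were lower in MHCII-hi and Klf13 slightly higher. Klf11 and Klf10 are the TGF-β inducible early genes, repressors that restrain growth. Klf11 (chromosome 12, 24651274 to 24662789, plus strand) was at 17.36, 17.63 and 16.97 FPKM in MHCII-lo and at 6.06, 6.34 and 6.94 FPKM in MHCII-hi. No MHCII-hi library came near the MHCII-lo libraries, and this fall was the largest of the set (ratio 2.69, MHCII-lo over MHCII-hi; log2 fold change −1.30, SE 0.0505, limma adjusted p 1.47e-06). Klf10 (chromosome 15, 38291463 to 38300706, minus strand) had 17.25, 15.74 and 17.26 FPKM in MHCII-lo and 7.75, 8.81 and 7.56 FPKM in MHCII-hi. Replicate 2 was the lowest MHCII-lo library and the highest MHCII-hi library for Klf10, and the groups still lay well apart (ratio 2.08, MHCII-lo over MHCII-hi; log2 fold change −0.97, SE 0.0641, limma adjusted p 2.04e-05).

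Klf16 (chromosome 10, 80567124 to 80577321, minus strand), a repressor that binds GC boxes, ranged from 7.22 to 7.69 FPKM in MHCII-lo and from 3.68 to 4.18 FPKM in MHCII-hi (log2 fold change −0.80, SE 0.0539, limma adjusted p 2.28e-05). Klf9 (chromosome 19, 23141226 to 23168134, plus strand), which glucocorticoids and thyroid hormone induce, ranged from 9.22 to 10.74 FPKM in MHCII-lo and from 5.91 to 6.72 FPKM in MHCII-hi. Its libraries spread most within MHCII-lo, with a coefficient of variation of 8.12%, against 0.698 to 5.75% for the other 9 genes there. The Klf9 fall was the smallest of the 5 (log2 fold change −0.58, SE 0.0713, limma adjusted p 0.000425). Klf13 (chromosome 7, 63886351 to 63938915, minus strand), a regulator of Ccl5 in T cells, went from 22.56 to 22.86 FPKM across MHCII-lo libraries to 24.37 to 25.08 FPKM across MHCII-hi libraries. That rise was the smallest of the set (ratio 1.09, log2 fold change 0.12, SE 0.027, limma adjusted p 0.00871), and 75.1% of tested genes had a change at least as large. Gm27252, which lies on the other strand within the Klf13 gene, was at 5.35 to 5.70 FPKM in MHCII-lo and 6.78 to 10.09 FPKM in MHCII-hi.

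**Figure D2:**
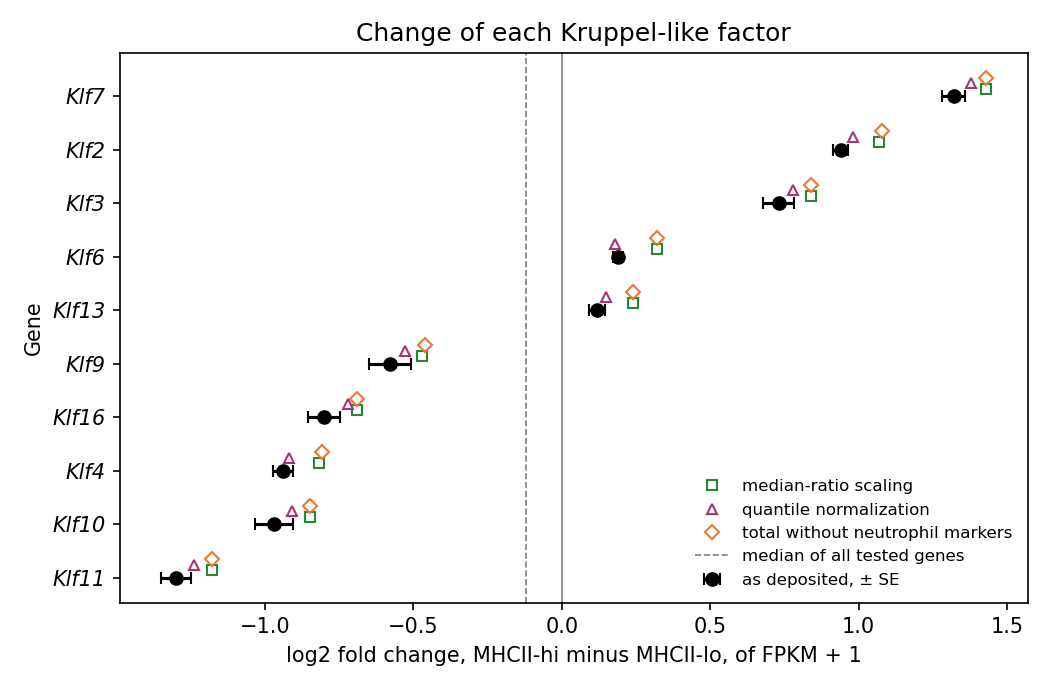
Log2 fold change of each Kruppel-like factor (MHCII-hi minus MHCII-lo) from values of FPKM + 1, as deposited with its SE (black) and after 3 other scalings (open symbols); the dashed line is the median of all tested genes. Klf7, Klf2, Klf3, Klf6 and Klf13 lie above 0 and the other 5 below 0 under each of the 4 scalings.

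Every one of these directions held, with its call, in all 15 alternative fits. Klf2 ranged from 0.91 to 1.08 on the log2 scale over these fits, Klf4 from −0.97 to −0.81, Klf7 from 0.84 to 1.52 and Klf11 from −1.41 to −0.96. The highest adjusted p of any member under any alternative was 0.0309, for Klf13.

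FPKM is per length, so levels of different genes can be set in order. In MHCII-lo the order from the top was Klf6, Klf2, Klf4, Klf13, Klf11, Klf10, Klf9, Klf16, Klf3 and Klf7, and the only neighbours whose libraries overlapped were Klf11 and Klf10. In MHCII-hi it was Klf6, Klf2, Klf4, Klf13, Klf7, Klf3, Klf10, then Klf9 and Klf11, whose libraries overlapped, and Klf16. The first 4 places were thus the same in both fractions, while Klf7 moved from the last place to the fifth and Klf11 from the fifth to the ninth, level with Klf9. The distance between Klf6 and Klf2 narrowed from 142 ± 1.56 against 76.4 ± 2.25 FPKM (SD, n = 3) in MHCII-lo to 162 ± 0.286 against 148 ± 0.303 FPKM in MHCII-hi.

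The summed level of the 10 genes was 359.6 to 362.6 FPKM in MHCII-lo and 408.1 to 409.6 FPKM in MHCII-hi. Within this sum the make-up differed between the fractions, and shares of the sum do not depend on library scaling. Klf2 took 20.76 to 21.78% of the sum in MHCII-lo libraries and 35.99 to 36.27% of it in MHCII-hi libraries. Klf4 took 15.65 to 16.94% and 7.22 to 7.46%. Klf6 held 39.11 to 39.61% of the sum in MHCII-lo and 39.41 to 39.58% of it in MHCII-hi, so its libraries overlapped and its share did not differ beyond their spread, although its level did. The 5 SIN3-recruiting members together went from 20.45 to 20.93% in MHCII-lo to 11.91 to 12.39% in MHCII-hi, or 74.5 ± 0.83 to 49.5 ± 1.06 FPKM (SD, n = 3). Klf13's share was lower in MHCII-hi (5.97 to 6.12%) than in MHCII-lo (6.27 to 6.34%), while its FPKM was higher, so its direction depends on the reference.

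**Figure D3:**
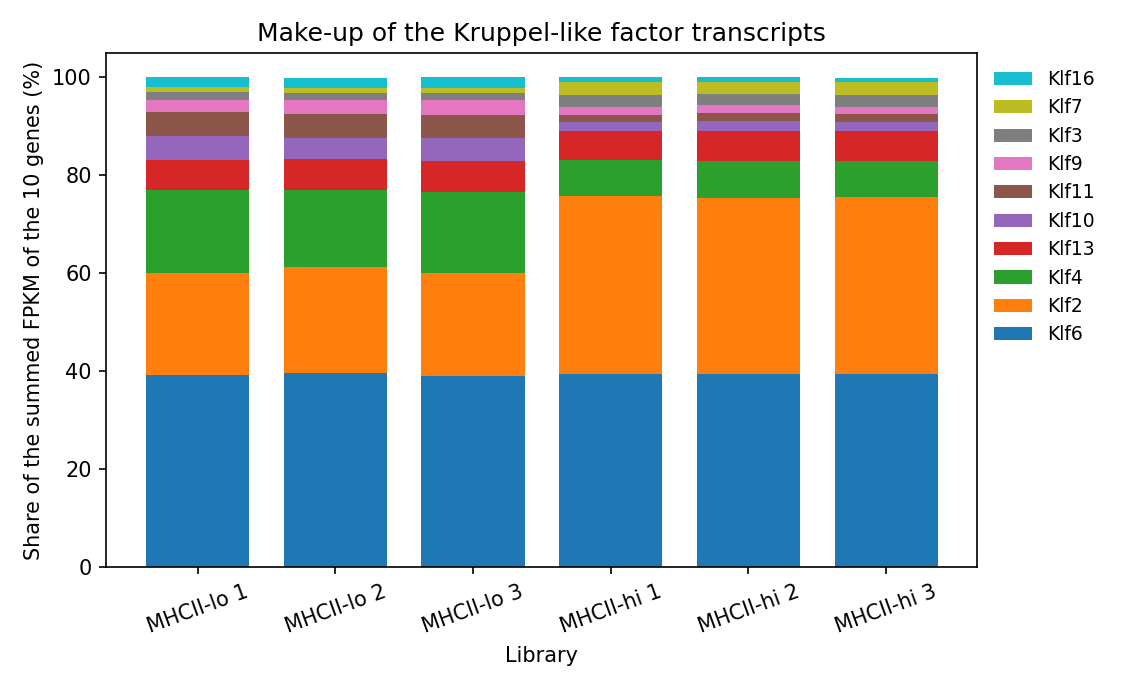
Share of each of the 10 genes in their summed FPKM (%), stacked for each of the 3 MHCII-lo and 3 MHCII-hi libraries. The Klf6 block is of like height in all 6 libraries, the Klf2 block is taller in MHCII-hi and the Klf4 block is shorter.

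The rest of the family was low or went both ways. Of the other 7 Kruppel-like factor genes, 6 were in the tables and 3 could be tested. Klf1, the red cell factor, was lower in MHCII-hi, at 9.48 to 10.82 FPKM against 3.85 to 4.43 FPKM (limma adjusted p 1.07e-05). In the same libraries the 12 erythroid markers summed to 550.4 to 561.4 FPKM in MHCII-lo and 338.6 to 350.0 FPKM in MHCII-hi, and 11 of the 12 were lower (40.6% of all tested genes were). Klf8, another CtBP-recruiting gene, fell from 1.80 ± 0.166 to 0.970 ± 0.218 FPKM (limma adjusted p 0.00482). It went the other way from Klf3, which is known to repress Klf8 in red cells. Any link between these changes was not tested. Klf5, an activator close to Klf4, was higher, at 1.68 ± 0.131 against 3.05 ± 0.0721 FPKM (limma adjusted p 0.000215). Klf12 did not exceed 0.12 FPKM in any library, and Klf14 and Klf15 were listed at 0 in all 6. Of the related SP genes 4 could be tested. Sp3 was higher, at 32.6 ± 0.362 against 36.2 ± 0.88 FPKM (adjusted p 0.00382). Sp2 was lower, at 8.47 ± 0.739 against 7.20 ± 0.257 FPKM (adjusted p 0.0287), a call lost under each of the 3 other scalings (adjusted p 0.125 to 0.299), without a filter (0.0665), and without MHCII-lo replicate 2 or 3 or MHCII-hi replicate 1 or 3 (0.0777 to 0.0892). Sp1 and Sp4 did not pass the test, though Sp1 was called higher under each of the 3 other scalings (adjusted p 0.00231 to 0.0271).

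Of the 12 genes of the SIN3 complex, 5 were lower and 2 higher in MHCII-hi, near the shares of 40.6% and 20.4% over all tested genes, with a median of −0.08 against −0.12. Sap30, a SIN3-associated subunit, fell from 36.2 ± 1.23 to 18.9 ± 1.73 FPKM (log2 fold change −0.90, adjusted p 3.14e-05). The histone-binding subunits Rbbp4 and Rbbp7 and the deacetylase Hdac2 fell by less, with log2 fold changes of −0.32, −0.26 and −0.31. Sin3a itself was at 18.44 to 18.56 FPKM in MHCII-lo and 16.89 to 18.27 FPKM in MHCII-hi and did not pass (adjusted p 0.111), but was called lower without MHCII-hi replicate 2 (0.041). Ctbp1, a partner of Klf3, was lower (34.5 ± 0.788 to 28.8 ± 1.16 FPKM, adjusted p 0.00106), and Ctbp2 did not pass. Among 4 acetyltransferases Ep300 was higher (10.5 ± 0.191 to 12.96 ± 0.15 FPKM, adjusted p 0.000374) and Kat2a lower (16.02 ± 1.02 to 14.1 ± 0.487 FPKM, adjusted p 0.0265). The Kat2a call was lost under the 3 other scalings (adjusted p 0.0794 to 0.509), without a filter (0.0566) and without MHCII-lo replicate 1 or 2 or MHCII-hi replicate 1 or 3 (0.0595 to 0.0809).

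Klf2 and Klf4 are both known to be induced through the kinases MEK5 and ERK5 and the MEF2 factors, whose site the Klf2 promoter above carries. Of 7 genes of that pathway, 3 were lower and 1 higher in MHCII-hi (40.6% and 20.4% of all tested genes). The majority turned with the scaling, with 2 lower and 3 higher after median-ratio scaling (25.9% and 28.2% of all tested genes), and the same counts with neutrophil markers left out of the total. Mef2d fell from 24.6 ± 0.106 to 17.2 ± 0.265 FPKM (adjusted p 9.4e-06) and Map2k5, which encodes MEK5, from 10.1 ± 0.207 to 8.18 ± 0.206 FPKM (adjusted p 0.00077). Map3k3, a kinase above MEK5, rose from 23.4 ± 1.48 to 31.6 ± 1.24 FPKM (adjusted p 0.000462). Mef2c was at 3.86 ± 0.951 against 2.31 ± 0.487 FPKM (adjusted p 0.0299). This call was lost without MHCII-lo replicate 1 or 2 or MHCII-hi replicate 2 (adjusted p 0.0835 to 0.0928) and under 5 other alternatives (0.0505 to 0.0821). Mapk7, which encodes ERK5, was at 5.22 to 6.27 FPKM in MHCII-lo and 6.06 to 6.58 FPKM in MHCII-hi and did not pass (adjusted p 0.0763), but was called higher under the 3 other scalings (0.0129 to 0.0261) and without MHCII-lo replicate 3 (0.0122). Map3k2, another kinase above MEK5, was at 4.35 to 4.69 FPKM in MHCII-lo libraries against 4.57 to 4.65 FPKM, and was called higher with neutrophil markers left out of the total (adjusted p 0.0346) or after median-ratio scaling (0.036). The called genes of the pathway did not share a direction.

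Klf10 and Klf11 respond to TGF-β, and of 12 genes of that pathway 6 were higher and 5 lower (20.4% and 40.6% of all tested genes), with 7 higher and 2 lower after median-ratio scaling (28.2% and 25.9%). The ligand Tgfb1 fell from 38.4 ± 1.16 to 27.3 ± 0.87 FPKM (adjusted p 3.85e-05), while the receptor Tgfbr1 rose from 5.43 ± 0.262 to 7.76 ± 0.526 FPKM (adjusted p 0.000584). The corepressors Skil and Tgif1 went opposite ways, Skil from 5.92 ± 0.196 to 9.28 ± 0.0436 FPKM and Tgif1 from 9.31 ± 0.891 to 5.28 ± 0.348 FPKM. Of 7 glucocorticoid response genes, the context of Klf9, 2 were higher and 4 lower (20.4% and 40.6% of all tested genes), and 2 were higher and 2 lower after median-ratio scaling (28.2% and 25.9%). Sgk1 rose from 12.0 ± 0.0866 to 18.4 ± 0.0987 FPKM, whereas Fkbp5 fell from 23.8 ± 0.239 to 18.2 ± 0.543 FPKM and Per1 from 29.0 ± 0.365 to 22.6 ± 0.82 FPKM (each at an adjusted p of 0.000153 or less). Dusp1, at 151 ± 3.06 against 140 ± 2.71 FPKM, kept no call under median-ratio scaling (adjusted p 0.467) or with neutrophil markers left out of the total (0.439). Tsc22d3, at 37.3 ± 0.66 against 34.6 ± 1.1 FPKM (adjusted p 0.0263), kept none under the 3 other scalings, without the trend, with the replicate number as a block, or without MHCII-lo replicate 1 or 3 or MHCII-hi replicate 1 or 3 (0.0534 to 0.55).

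Klf2, Klf4, Klf6 and Klf10 are themselves rapidly induced genes, so immediate early genes were set beside them. Of 16 such genes 11 were lower and 4 higher (40.6% and 20.4% of all tested genes), and 9 and 5 after median-ratio scaling (25.9% and 28.2%). Their median was −0.33, against −0.12 over all tested genes. Atf3 fell from 116 ± 1.85 to 40.0 ± 0.645 FPKM (adjusted p 2.78e-08), Jun from 424 ± 6.7 to 281 ± 4.66 FPKM and Fos from 602 ± 3.95 to 424 ± 7.26 FPKM. Btg2, an antiproliferative gene, rose from 61.3 ± 2.23 to 101 ± 1.17 FPKM. Klf4 and Klf10 thus had the direction of most of these genes and Klf2 and Klf6 that of the 4 which rose.

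Of the genes named in textbooks as targets of Klf2 and Klf4, 2 of 5 tested were higher and 3 lower (20.4% and 40.6% of all tested genes). The list pools targets of Klf2, which was higher, and of Klf4, which was lower, so it has no single direction to be set against. Of the genes Klf2 controls in T cells, S1pr1 rose from 1.87 ± 0.331 to 3.19 ± 0.161 FPKM (adjusted p 0.00208), while Itgb7, an integrin chain of gut homing, fell from 73.8 ± 1.09 to 28.1 ± 0.36 FPKM (adjusted p 4.38e-08). Thbd, which Klf2 induces in endothelium, fell from 7.07 ± 0.337 to 4.01 ± 0.355 FPKM. S1pr1 was named after its values were seen. Of the genes tied to Klf4, the cell cycle inhibitor Cdkn1a fell from 19.6 ± 0.594 to 10.3 ± 0.308 FPKM and the monocyte receptor Cd14 rose from 40.9 ± 1.9 to 64.1 ± 1.71 FPKM. All 5 passed the test, against 60.9% of all tested genes.

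**Figure D4:**
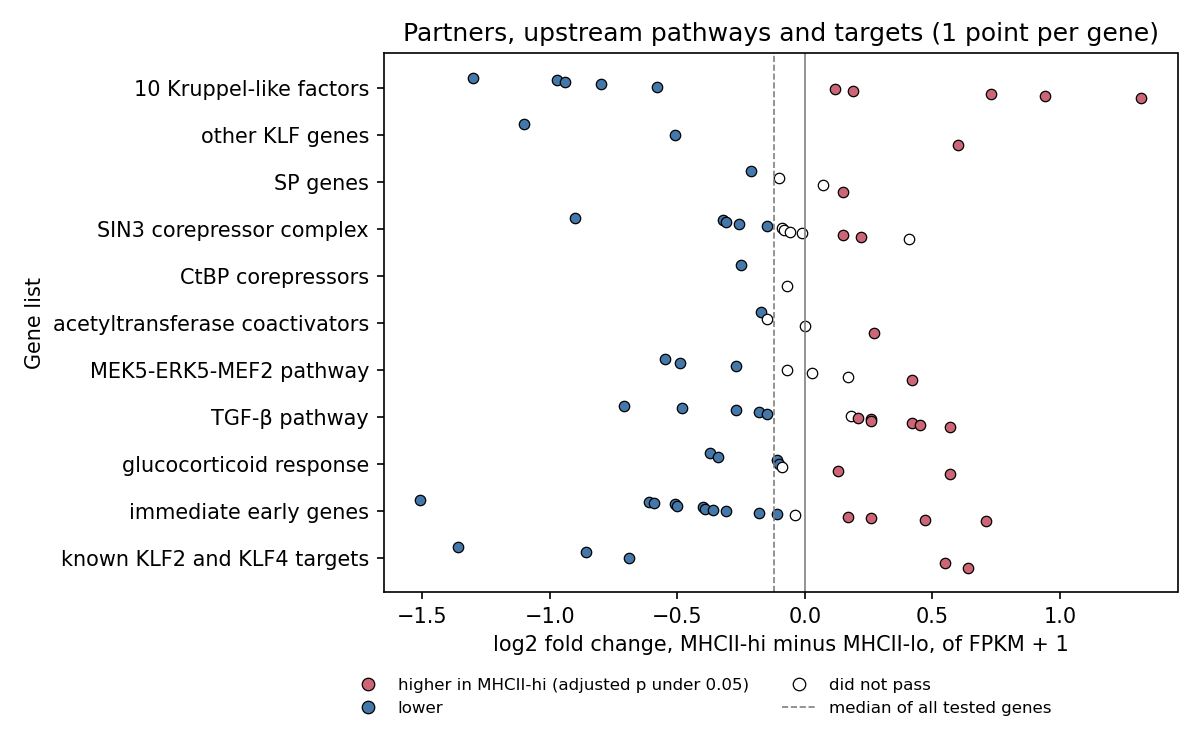
Log2 fold change (MHCII-hi minus MHCII-lo, FPKM + 1) of each tested gene of the 10 Kruppel-like factors and of 10 lists of family members, partners, upstream pathways and targets; red points were higher, blue lower and white points did not pass the limma test. No list but that of the CtBP corepressors lies on a single side of 0, and the dashed line marks the median of all tested genes.

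Markers of other blood cells moved between the fractions too, and their part in the results for the Kruppel-like factors was not tested. The calls in each list stand beside 20.4% higher and 40.6% lower over all tested genes. The 22 neutrophil markers, 21 of them higher and Mpo lower, summed to 11489 to 11584 FPKM in MHCII-lo and 56947 to 57633 FPKM in MHCII-hi. Monocyte and macrophage markers, the cells Klf4 is known for, were lower in 8 of 10 tested and higher in 2 (of 13), and their sum was 1015 to 1043 FPKM in MHCII-lo and 644.0 to 668.5 FPKM in MHCII-hi. Ly6c2, a marker of inflammatory monocytes, fell from 475 ± 5.14 to 315 ± 14.4 FPKM. Of 12 B cell markers 3 could be tested and 2 were higher, and their sum of 120.0 to 127.2 FPKM in MHCII-lo and 363.7 to 371.7 FPKM in MHCII-hi was mostly Ighm. The B cell genes Ms4a1, Ebf1, Pax5, Vpreb1, Igll1, Blnk and Cd22 stayed under 1 FPKM in all 6 libraries. T and NK cell markers, of which 9 of 12 were tested and 5 lower (3 after median-ratio scaling), summed to 213.7 to 217.9 FPKM in MHCII-lo and 168.9 to 178.3 FPKM in MHCII-hi. This sum was mostly Nkg7, at 160 ± 5.66 and 137 ± 5.12 FPKM. Nkg7, Ccl5, Gzma, Klrb1c and Trac were called lower as deposited, and no tested gene of the list was called higher. Ccl5 fell from 28.25 ± 2.33 to 13.2 ± 1.63 FPKM and Gzma from 7.34 ± 0.971 to 3.60 ± 0.615 FPKM. Klrb1c fell from 2.72 ± 0.324 to 1.69 ± 0.235 FPKM. The T cell genes Cd3d, Cd3g, Cd8a and Lck did not pass the test, and Cd3e and Cd4 were under 1 FPKM throughout. No gene of these lists was at 0 in all libraries. With the neutrophil markers left out of the library total, Klf2 and Klf4 had log2 fold changes of 1.08 and −0.81.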

How the data were processed

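The authors deposited a 2-column table for each library, with gene names and values in 30803 rows. These deposited values were taken to be FPKM, since they have decimals, do not sum to a fixed total and StringTie writes FPKM. Per the submitters' processing notes, fastp, HISAT2 and StringTie were used with GRCm38 (mm10), without versions. Which annotation was used, and whether strand was, is not stated there. FPKM are relative, so abundant genes lower all others. No depth is recorded, and low values of single-exon genes showed no clear step of 1 fragment (mean cosine 0.067 to 0.096, where 1 is a clear step), so depth is unknown and counting error cannot be given.

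For 70 rows with a repeated symbol the row with the highest mean was kept. The 12037 genes averaging 1 FPKM or more were tested on log2(FPKM + 1) with limma 3.58.1 (R 4.3.3), using a mean-variance trend and a model of group alone, and p-values were adjusted by Benjamini-Hochberg over all of them, with a limit of 0.05. The fit was also run on simulated libraries with independent normal noise and few changed genes. That run had no shift in composition, so it cannot speak of the relative scale of FPKM or of what the libraries replicate. Positions come from GENCODE and promoters from RefSeq. Other steps used scipy 1.17.1, numpy 2.4.6 and pandas 2.3.3 in Python 3.11.15. Alternatives were pseudocounts of 0.1 and 5, no filter, a mean of at least 5 FPKM, 3 scalings, no trend, the replicate number as a block and leaving out each library.

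The 10 genes and the 23 lists (225 entries, 4 not found) were chosen with earlier results of these data known. Named were the 10 genes, the other family genes, the sort check, the 4 called genes with the smallest p of each family or pathway list, up to 2 abundant markers of each cell type list, and the 3 genes nearest in pattern to Klf2 and to Klf4. Genes that fall outside this rule (Sp1, Sp4, Sin3a, Ctbp2, Mapk7, Map3k2, Tsc22d3, Gm13748, Gm20033, Gm27252 and C230096K16Rik among them) were named after their values were seen. One gene of the target list is not reported here. Markers of plasma cells, dendritic cells, basophils and mast cells, eosinophils and megakaryocytes were also summed.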

Additional observations from a re-analysis of the deposited data

How the results depend on the processing

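All 10 Kruppel-like factors kept their direction and their limma call in all 15 alternative fits (150 of 150 results), so 5 were higher and 5 lower in each. Klf6 ranged from 0.18 to 0.32 on the log2 scale, Klf13 from 0.10 to 0.24, Klf3 from 0.49 to 0.84, Klf9 from −0.65 to −0.41, Klf10 from −1.05 to −0.74 and Klf16 from −0.93 to −0.49. The difference of Klf2 and Klf4 stayed between 1.77 and 1.94, with the smallest exact permutation p the libraries allow. Of 1050 results for genes of the family and pathway lists, 928 kept their direction and side of the threshold, and 31, for 13 genes, changed sign, none of them called both as deposited and in the alternative. Of the genes named, the log2 fold change turned to 0.04 for Ctbp2, 0.02 for Dusp1, 0.05 for Sin3a, 0.01 for Sp4 and 0.02 for Tsc22d3 after median-ratio scaling, and to 0.04, 0.02, 0.05, 0.01 and 0.03 with the neutrophil markers left out of the total. Ctbp2 was at 0.00 under quantile normalization, and Sp4 ranged from −0.25 to 0.10 with 1 library left out, with 0.10 without MHCII-hi replicate 1. Over all tested genes, the lower calls went from 4883 to 3123 after median-ratio scaling (with 3392 higher) and to 3092 with the neutrophil markers left out of the total (with 3413 higher). The share of higher calls was 33.4% as deposited, 52.1% and 52.5% in those fits.

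With the replicate number as a block, 2305 genes were higher and 4659 lower over all tested genes, and the 10 Kruppel-like factors kept their calls. The labels do not say whether same numbers mark pairs. Deviations of same-numbered libraries from their group means correlated at −0.053, −0.046 and −0.043, so no shared shift was seen. This cannot settle whether they were pairs, as it sees only shifts shared over many genes. Depth is unknown, which leaves the precision of low genes such as Klf8 to the spread between libraries alone.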

Other observations

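The genes whose log2(FPKM + 1) over the 6 libraries ran closest to Klf2 by Pearson's r were Ripor2, Sfxn5 and Atxn10, each at an r over 0.99. Ripor2 went from 5.46 ± 0.223 to 15.7 ± 0.183 FPKM (SD, n = 3) and Atxn10 from 59.5 ± 1.67 to 103 ± 0.85 FPKM. Closest to Klf4 were Mcm6, a subunit of the replicative helicase (89.0 ± 1.22 to 62.7 ± 0.844 FPKM), Unc93b1, which carries Toll-like receptors to endosomes (76.7 ± 2.37 to 46.8 ± 0.225 FPKM), and Zfp36l2, an RNA-binding protein that destabilises messages (246 ± 4.14 to 164 ± 1.86 FPKM). Likeness over 6 libraries in 2 groups mostly reflects the groups, and 736 tested genes had an r of at least 0.99 with Klf2 and 617 with Klf4.

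Among the cell types not named above, the summed level of 9 eosinophil markers was 5406 to 5450 FPKM in MHCII-lo and 2309 to 2316 FPKM in MHCII-hi, of 8 basophil and mast cell markers 854.0 to 882.3 and 416.1 to 424.2 FPKM, of 11 dendritic cell markers 315.6 to 322.8 and 168.2 to 172.7 FPKM, of 10 plasma cell markers 1534 to 1559 and 1805 to 1836 FPKM, and of 7 megakaryocyte markers 38.22 to 41.13 and 39.09 to 41.26 FPKM.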
